A study of Mus musculus with 21 samples.

Results

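The genes described here were 10 genes of the Hippo pathway, its transcription factors and genes named as its targets. They were Ccn1, Ccn2, Nuak1, Ankrd1, Amotl2, Lats2, Ajuba, Axl, Tead1 and Yap1, of 22180 genes measured by a single named row. Each was found by its gene symbol, and where a gene had several rows the row was chosen by its highest mean signal over all 21 arrays. The genes were also proposed with earlier results of these arrays known, so their values are given as a description, and their p-values are not printed. All 10 were measured and none was filtered for a low signal.

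Affymetrix arrays measured the RNA of osteoblasts, cells that form bone, grown from the skull vaults (calvaria) of 7 to 10 day old pups of the C57BL/6J strain. The cells, at passage 2, were in differentiation medium from day 3, lost their serum on day 10 and were treated 24 h later, for 4 h, in medium with 0.5% bovine serum albumin. There were 7 groups of 3 arrays, and the cells of each replicate came from their own preparation. One group received vehicle and the others a fragment of parathyroid hormone (PTH), which acts through a receptor coupled to cyclic AMP. The human fragments hPTH(1-34) and hPTH(1-31) and the fragment PTH(1-36) begin at the first residue of the hormone and are named intact here. Bovine bPTH(3-34), human hPTH(7-34) and the bovine amide with substituted residues, bPTH(7-34), begin further in and are named truncated here. The dose was 100 nM except for bPTH(7-34), which was given at 1000 nM.

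YAP, the product of Yap1, and its paralog TAZ are coactivators that reach DNA by binding the TEAD transcription factors. The Hippo kinases MST and LATS phosphorylate YAP and TAZ and keep them out of the nucleus, while attachment, a stretched actin skeleton and several G protein signals let them in. In many cell types receptors that raise cyclic AMP activate LATS, and in bone YAP and TAZ take part in osteoblast differentiation and in the response to mechanical load.

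Of the 10 genes 5 had lower signals with all 3 intact analogs and passed the threshold each time, namely the secreted matrix proteins Ccn1 and Ccn2, the kinase Nuak1, and the scaffolds Amotl2 and Ajuba. Of all 22180 genes 2.48% were called lower with all 3. Ajuba lost its call in 4, 3 and 8 of 13 alternative fits with hPTH(1-34), hPTH(1-31) and PTH(1-36). Ccn1, Ccn2, Nuak1 and Amotl2 kept theirs in every one. Nuak1 with hPTH(1-34) was the lowest, at 2.24-fold below vehicle. The kinase Lats2 was lower by a smaller amount, Ankrd1 was lower without passing the threshold, and Axl, Tead1 and Yap1 stayed within 0.24 log2 units of vehicle. With the truncated analogs none of the 10 passed the threshold. Of all genes 0%, 0.0721% and 0% did so with bPTH(3-34), hPTH(7-34) and bPTH(7-34). Whole cultures were measured, so fewer cells of a type and less RNA per cell cannot be told apart.

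Signals are on a log2 scale, so that a difference of 1 is a 2-fold change. Each difference comes from 1 linear model of all 7 groups in limma, with its standard error (SE) and its 95% interval, and "called" means an adjusted p (Benjamini-Hochberg over all 22180 genes) under 0.05. The number after a gene is its row in the table, and the position is that of the gene in the RefSeq annotation (GRCm38.p6), since the build of the array is not given in the sources used here. Signals of different genes come from different probes and are not set against each other.

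The promoters are shown because the TEAD factors bind a known short core, and because 8 of the 10 genes had promoter sequence in the RefSeq table (build GRCm38.p6); Ccn2 and Tead1 are named only. The sequences below are the 250 bases before each start, read 5′ to 3′ on the gene's strand, with the TEAD core GGAATG, or its reverse complement CATTCC, in capitals. They lie at chr3:145649986-145650235 on the minus strand (Ccn1), chr19:36119845-36120094 on the minus strand (Ankrd1), chr9:102717554-102717803 on the plus strand (Amotl2) and chr14:54577662-54577911 on the minus strand (Ajuba).
Ccn1: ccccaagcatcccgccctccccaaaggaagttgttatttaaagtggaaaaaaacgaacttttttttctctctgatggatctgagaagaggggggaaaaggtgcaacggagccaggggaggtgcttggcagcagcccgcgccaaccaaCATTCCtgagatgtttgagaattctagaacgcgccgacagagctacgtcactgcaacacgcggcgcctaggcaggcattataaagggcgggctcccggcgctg
Ankrd1: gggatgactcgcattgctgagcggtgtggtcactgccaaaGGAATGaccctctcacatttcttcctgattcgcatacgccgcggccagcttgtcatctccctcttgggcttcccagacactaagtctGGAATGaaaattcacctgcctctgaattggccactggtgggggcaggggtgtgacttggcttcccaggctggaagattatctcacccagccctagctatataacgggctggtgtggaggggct
Amotl2: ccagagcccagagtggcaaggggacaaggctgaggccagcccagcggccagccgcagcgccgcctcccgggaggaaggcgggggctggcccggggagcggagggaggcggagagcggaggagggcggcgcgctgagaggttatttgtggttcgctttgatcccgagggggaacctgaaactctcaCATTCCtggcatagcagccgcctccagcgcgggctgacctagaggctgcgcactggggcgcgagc
Ajuba: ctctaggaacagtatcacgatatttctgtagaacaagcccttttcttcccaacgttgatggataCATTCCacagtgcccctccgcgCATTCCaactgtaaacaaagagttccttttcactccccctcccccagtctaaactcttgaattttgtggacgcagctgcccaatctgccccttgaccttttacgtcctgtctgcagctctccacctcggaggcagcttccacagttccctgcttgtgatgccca

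Searched on both strands, the core was present in 6 of 9 promoter windows of these 8 genes, against 12.6% of 32851 promoter windows of the same length in the table. The genes were chosen as parts of this pathway or as its named targets. The share in their windows is thus not independent of that choice, and nothing is read from its excess over all windows. The 6 were the windows of Ccn1, Ankrd1, Amotl2, Ajuba, Axl and Yap1, and Ankrd1 and Ajuba held it at 2 places each. In Ccn1 it lay 103 to 98 bases before the start, and in Amotl2 65 to 60 bases before it. The windows of Nuak1 and both windows of Lats2 held no match to these letters.

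Elements of other pathways were searched in the same way. The full cyclic AMP response element TGACGTCA was found in 0 of the 9 windows (1.55% of all windows), and the shorter element TGACG in the windows of Ccn1 and Lats2 only (17.8% of all windows). The AP-1 element TGANTCA was found in 0 (6.75%) and the CArG box, the element of serum response factor, in 0 (1.47%). The TATA box core TATAAA was found in the window of Ccn1 only (12.4%). A match is a run of letters and not a measured binding site, and the shorter element overlaps the full one by construction. Genes with the TEAD core stood on both sides of the threshold. Amotl2 was called lower with all 3 intact analogs and Yap1 and Axl with none, and Nuak1, without a match, had the lowest difference.

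**Figure D1:**
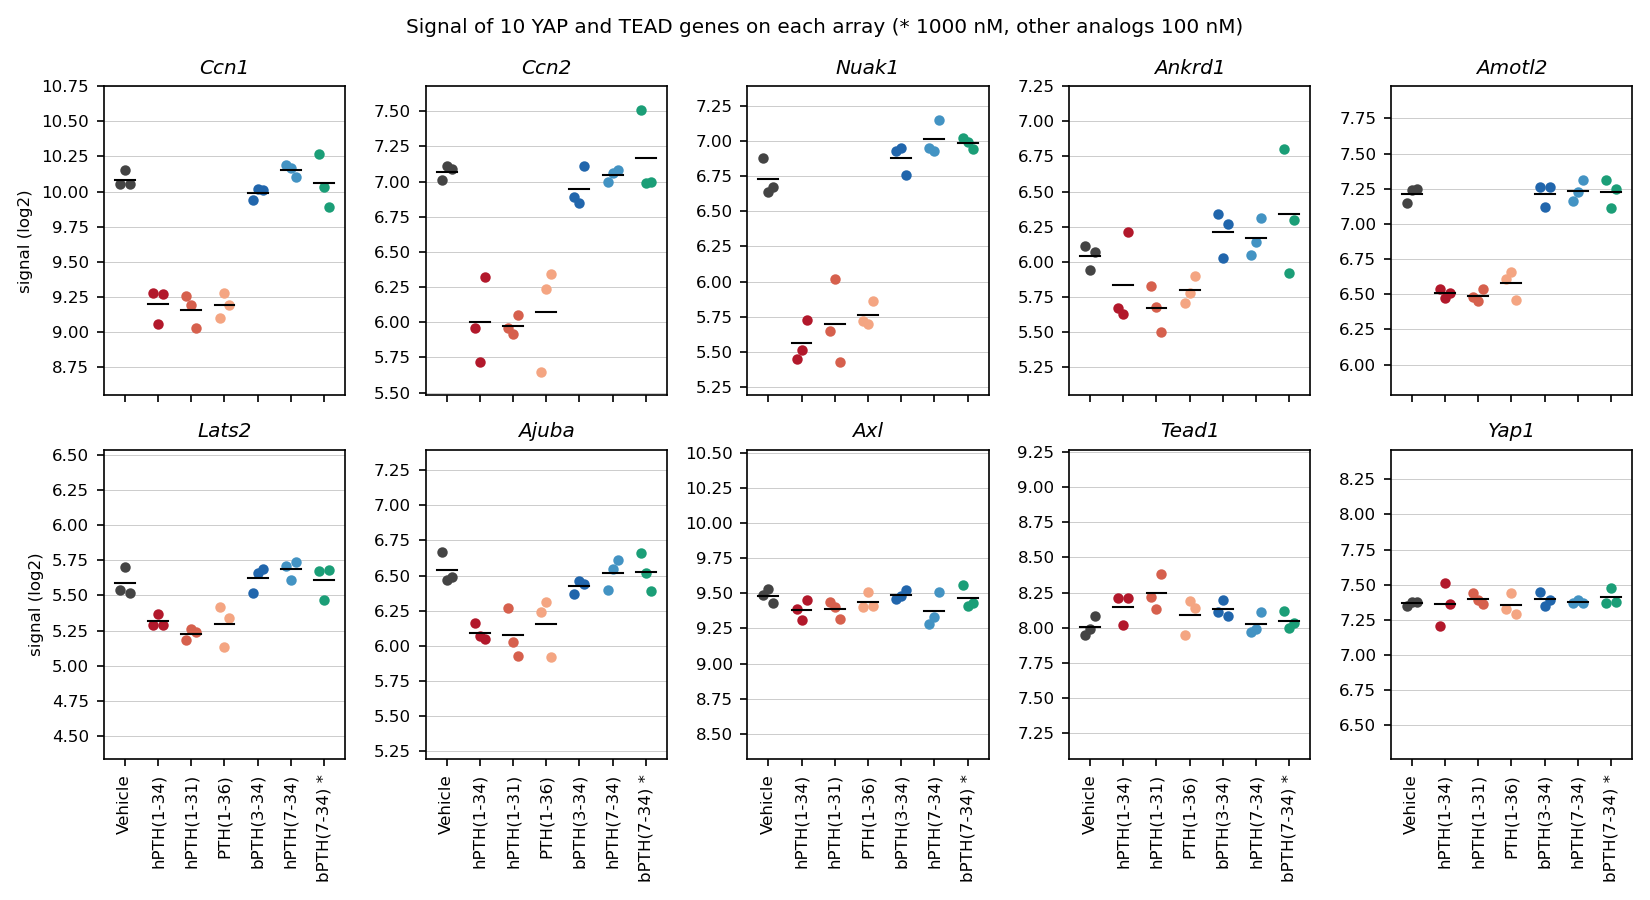
Signal (log2, vertical axis, with the same span in every panel) of the 10 genes on each of the 21 arrays, by treatment on the horizontal axis; points are arrays and bars are means of 3. The 9 arrays of the intact analogs sit below the other 12 for Ccn1, Ccn2, Nuak1, Amotl2, Lats2 and Ajuba, and among them for Ankrd1, Axl, Tead1 and Yap1. The share of all genes with this split was not counted, so nothing is read from how many of the 10 show it.

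The 2 genes at the core of the pathway had no called difference. Yap1 (row 17523883, chr9:7931999-8004638), the coactivator itself, had signals of 7.35, 7.38 and 7.38 with vehicle, 7.21, 7.51 and 7.36 with hPTH(1-34), 7.44, 7.39 and 7.36 with hPTH(1-31), and 7.33, 7.44 and 7.29 with PTH(1-36). The highest and the lowest of all 21 Yap1 values were both arrays of hPTH(1-34). The differences from vehicle were -0.01, 0.03 and -0.02 with the 3 intact analogs in that order, and their intervals together reached from -0.18 to 0.19. The arrays measured RNA only, so the phosphorylation and the location of the protein, through which the pathway acts, are not in these data.

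Tead1 (row 17481936, chr7:112679356-112906784), the DNA-binding partner, was at 7.95, 7.99 and 8.08 with vehicle and at 8.22, 8.13 and 8.38 with hPTH(1-31). These 3 arrays lay above all 3 of vehicle, with a difference of 0.24 (SE 0.09, interval 0.05 to 0.43) that was not called. With hPTH(1-34) it was at 8.21, 8.02 and 8.21 and with PTH(1-36) at 7.95, 8.19 and 8.14, and in both groups the arrays overlapped those of vehicle. Tead1 was the only one of the 10 with a positive difference for all 3 intact analogs.

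The next 3 genes restrain the pathway or its kinases and are also known as targets of YAP, which makes a feedback loop. Amotl2 (row 17520856, chr9:102717091-102733418), an angiomotin family scaffold that holds YAP outside the nucleus, was at 7.15, 7.24 and 7.25 with vehicle. It was at 6.54, 6.47 and 6.51 with hPTH(1-34), at 6.48, 6.45 and 6.54 with hPTH(1-31) and at 6.61, 6.66 and 6.46 with PTH(1-36). The 9 arrays of the intact analogs, 6.45 to 6.66, lay clear of the 9 arrays of the truncated analogs, 7.11 to 7.31. Amotl2 fell by 0.71, 0.72 and 0.64 (SE 0.08) in that order, or 1.55-fold to 1.65-fold.

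Lats2 (row 17307184, chr14:57689662-57746212), 1 of the 2 kinases that phosphorylate YAP, was at 5.54, 5.70 and 5.52 with vehicle. It was at 5.29, 5.37 and 5.29 with hPTH(1-34), at 5.18, 5.26 and 5.24 with hPTH(1-31) and at 5.42, 5.13 and 5.34 with PTH(1-36). Every array of the intact analogs was below every array of vehicle, and the gap to the nearest truncated array was small (5.42 against 5.47). The differences of -0.27, -0.36 and -0.29 (SE 0.09) were called for hPTH(1-31) only. Leaving out vehicle replicate 2 (-0.30) or hPTH(1-31) replicate 1 (-0.34) ended that call, and without PTH(1-36) replicate 1 the difference of PTH(1-36), then -0.35, was called.

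Ajuba (row 17306396, chr14:54567469-54577661), a LIM domain protein that binds LATS and restrains it, was at 6.67, 6.47 and 6.49 with vehicle. It was at 6.16, 6.07 and 6.05 with hPTH(1-34), at 6.27, 6.03 and 5.93 with hPTH(1-31) and at 6.24, 6.31 and 5.92 with PTH(1-36). All 9 arrays were below vehicle, and vehicle replicate 1 was the highest of the 21. The differences of -0.45, -0.47 and -0.39 (SE 0.11) were called each time. Leaving out vehicle replicate 1 ended the call for all 3 analogs (-0.39, -0.40 and -0.32). The calls were also lost without hPTH(1-34) replicate 2 or 3 (-0.44 and -0.43), without hPTH(1-31) replicate 3 (-0.39), and, for PTH(1-36), without either of the other vehicle replicates (-0.42 and -0.41) or PTH(1-36) replicate 1 or 3 (-0.43 and -0.27).

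The 2 secreted targets were lower by about a factor of 2. Ccn1 (row 17410974, chr3:145646971-145649985), a matrix protein that binds integrins and is a standard readout of YAP and TEAD, was at 10.05, 10.15 and 10.05 with vehicle. It was at 9.28, 9.06 and 9.27 with hPTH(1-34), at 9.26, 9.19 and 9.03 with hPTH(1-31) and at 9.10, 9.28 and 9.19 with PTH(1-36). The 9 arrays of the intact analogs spanned 9.03 to 9.28 and the other 12 arrays spanned 9.89 to 10.27, so that no array stood between. The differences were -0.88, -0.92 and -0.89 (SE 0.10), or 1.84-fold to 1.90-fold, and the 3 intervals together reached from -1.13 to -0.67.

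Ccn2 (row 17232235, chr10:24595442-24598683), the connective tissue growth factor, is a secreted protein of the same family. It was at 7.01, 7.11 and 7.09 with vehicle, at 5.96, 5.72 and 6.32 with hPTH(1-34), at 5.96, 5.92 and 6.05 with hPTH(1-31) and at 5.65, 6.24 and 6.34 with PTH(1-36). The arrays of the intact analogs again stayed below the other 12 (6.34 against 6.85 at the nearest), although replicates differed more than those of Ccn1, with an SD of 0.37 for PTH(1-36). The differences were -1.07, -1.09 and -0.99 (SE 0.17), or 1.99-fold to 2.13-fold. A second row with the Ccn2 symbol, 17239773, had a low signal and a different pattern, 3.41 ± 0.22 with vehicle, 3.18 ± 0.33 with hPTH(1-34), 2.41 ± 0.32 with hPTH(1-31) and 3.08 ± 0.29 with PTH(1-36) (SD, n = 3). With the truncated analogs this row was at 2.87 ± 0.39 for bPTH(3-34), 2.86 ± 0.39 for hPTH(7-34) and 3.04 ± 0.30 for bPTH(7-34). These means were all below that of hPTH(1-34), unlike those of the row used. When both rows were averaged the difference shrank to -0.65 for hPTH(1-34) and -0.66 for PTH(1-36), and both were still called.

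Nuak1 (row 17243604, chr10:84370900-84440668), a kinase related to the energy sensor AMPK, was at 6.88, 6.64 and 6.67 with vehicle. It was at 5.45, 5.51 and 5.73 with hPTH(1-34), at 5.65, 6.02 and 5.43 with hPTH(1-31) and at 5.72, 5.70 and 5.86 with PTH(1-36). No array of an intact analog reached the lowest of vehicle. The differences were -1.17, -1.03 and -0.97 (SE 0.13), or 1.96-fold to 2.24-fold. With the truncated analogs Nuak1 was at 6.93, 6.95 and 6.76 with bPTH(3-34), 6.95, 6.93 and 7.15 with hPTH(7-34) and 7.02, 6.99 and 6.94 with bPTH(7-34). The arrays of bPTH(3-34) overlapped those of vehicle. Those of hPTH(7-34) and bPTH(7-34) were all above those of vehicle, as they were for 6.68% and 3.86% of all genes. The differences of 0.28 (interval 0.02 to 0.54) and 0.25 (interval -0.01 to 0.52) were not called.

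Ankrd1 (row 17364176, chr19:36111965-36119844), an ankyrin repeat protein of the nucleus and the muscle sarcomere and another common readout of YAP, was less uniform. It was at 6.11, 5.94 and 6.07 with vehicle, at 5.67, 5.63 and 6.21 with hPTH(1-34), at 5.83, 5.68 and 5.50 with hPTH(1-31) and at 5.71, 5.78 and 5.90 with PTH(1-36). All arrays of hPTH(1-31) and PTH(1-36) were below vehicle, whereas hPTH(1-34) replicate 3 was above all 3 vehicle arrays, and the same array had the highest Ccn2 signal of its group. The differences of -0.20, -0.37 and -0.24 (SE 0.18) were not called. Without hPTH(1-34) replicate 3 the first of these was -0.39, also not called.

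Among the truncated analogs the Ankrd1 arrays of bPTH(7-34) were spread from 5.92 to 6.80. Their difference from vehicle, 0.30 (interval -0.08 to 0.68), was 0.07 without bPTH(7-34) replicate 1. That array held the highest signal of the 21 for Ccn1 (10.27), Ccn2 (7.51), Ankrd1 (6.80) and Axl (9.56), and shared the highest for Amotl2 (7.31).

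Axl (row 17488032, chr7:25756500-25788924), the receptor tyrosine kinase for Gas6, was at 9.49, 9.53 and 9.43 with vehicle, at 9.39, 9.31 and 9.45 with hPTH(1-34), at 9.44, 9.40 and 9.32 with hPTH(1-31) and at 9.40, 9.51 and 9.41 with PTH(1-36). The groups overlapped, with differences of -0.10, -0.10 and -0.04 (SE 0.08) and intervals that together reached from -0.27 to 0.12. A fall of Axl as large as that of Ccn1 lay outside these intervals.

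**Figure D2:**
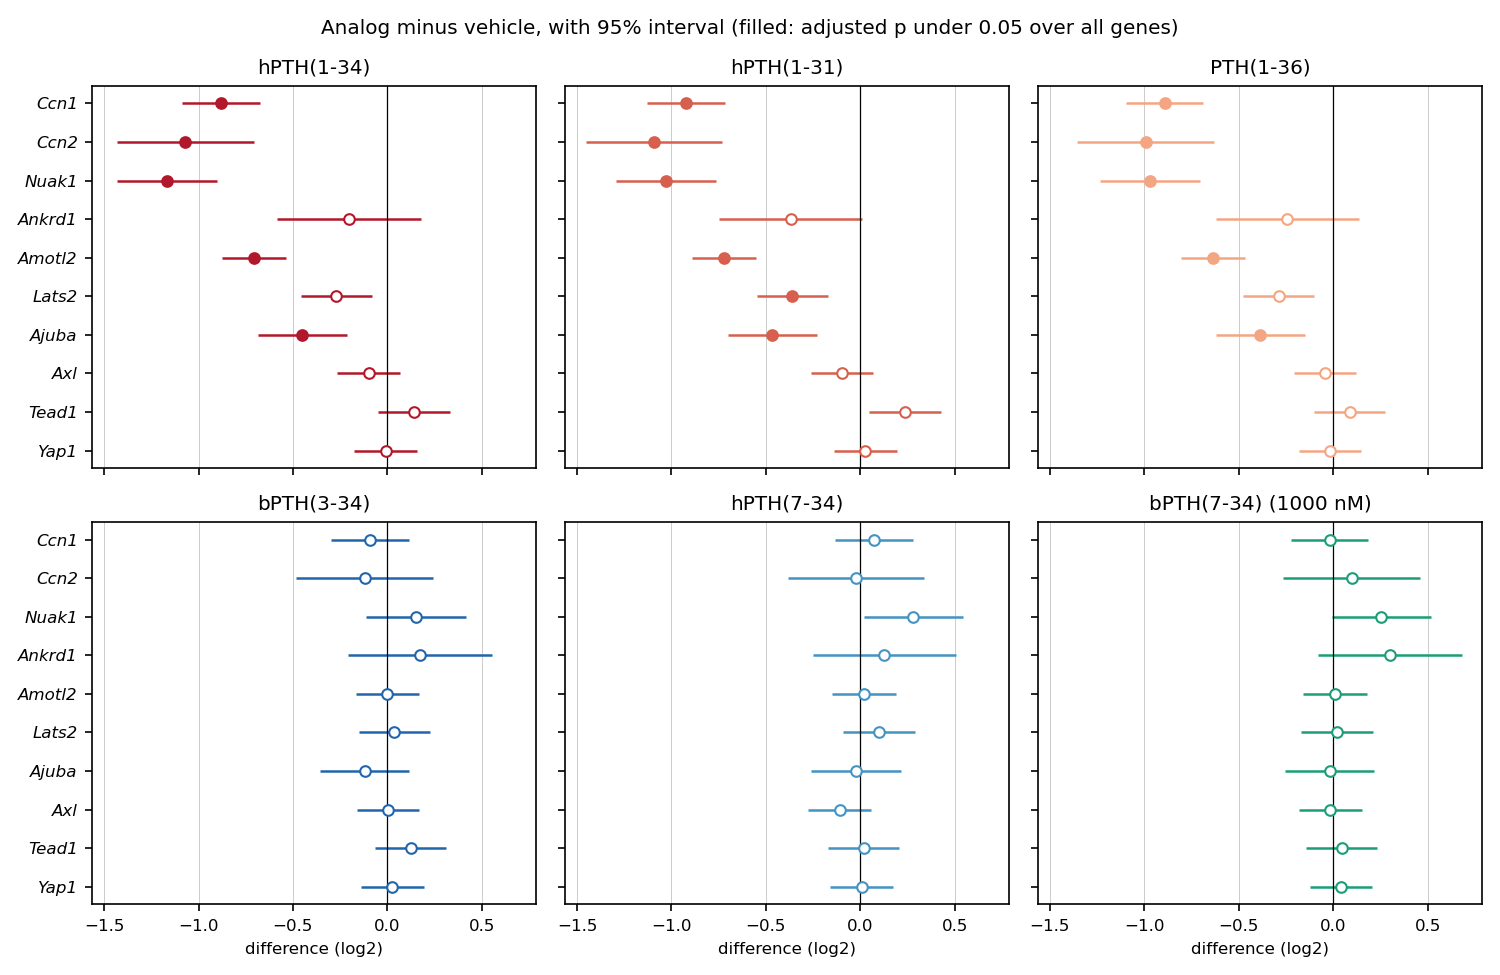
Difference from vehicle (log2, horizontal axis) of the 10 genes for each of the 6 analogs, with 95% intervals as lines; filled points were called. Ccn1, Ccn2 and Nuak1 lie near -1 with the 3 intact analogs and all 10 genes lie between -0.12 and 0.30 with the truncated analogs.

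Counted over the 10 genes, 5 were called lower with hPTH(1-34), where 4.74% of all genes were called lower. With hPTH(1-31) 6 were called lower (4.32% of all genes) and with PTH(1-36) 5 (3.54% of all genes). None was called higher, against 3.9%, 4.38% and 3.68% of all genes in the same order. These contrasts share the vehicle arrays and the genes were proposed with such results known, so nothing is read from the counts. The arrays of the analog were all below those of vehicle for 6, 7 and 7 of the 10 genes, against 12.9%, 11.9% and 10.9% of all genes, and all above for 1 gene, Tead1, with hPTH(1-31) (10.2% of all genes). The median difference of the 10 genes was -0.36, -0.42 and -0.34, beside -0.01, -0.02 and -0.02 over all genes.

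With bPTH(3-34) none of the 10 genes was called in either direction by limma (0% of all genes were called). Of the 10, 0 had an unadjusted p under 0.05, against 1313 of all 22180 genes. The arrays of bPTH(3-34) were all below those of vehicle for 2 of the 10, Ccn1 and Ajuba, against 5.18% of all genes. With hPTH(7-34) none was called (0.0721% of all genes) and 1, Nuak1, had an unadjusted p under 0.05 (1817 of all genes). With bPTH(7-34), at its higher dose, none was called (0% of all genes) and 0 had an unadjusted p under 0.05 (1151 of all genes). The 95% intervals bound what could have been missed. For Ccn1 the 3 intervals reached from -0.30 to 0.28, for Amotl2 from -0.17 to 0.19 and for Ccn2 from -0.48 to 0.46, so a fall of the size seen with the intact analogs lay outside each of them. For Ankrd1 they reached from -0.25 to 0.68.

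The intact analogs share the start of the hormone and differ in where the chain ends, and at the same dose and time they were compared directly. None of the 10 genes was called between hPTH(1-31) and hPTH(1-34) (0% of all genes). The same held for PTH(1-36) against hPTH(1-34) (0.00451% of all genes) and against hPTH(1-31) (0.00451% of all genes). In each pair 0 of the 10 had an unadjusted p under 0.05, against 994, 1423 and 1257 of all genes in that order. A missed threshold does not show that the analogs act alike, and the intervals give the room that was left. For hPTH(1-31) minus hPTH(1-34) the 10 intervals all held 0 and reached from -0.55 to 0.40. They reached from -0.42 to 0.46 for PTH(1-36) minus hPTH(1-34) and from -0.34 to 0.51 for PTH(1-36) minus hPTH(1-31). The loss of the last residues in hPTH(1-31) thus left Ccn1 within -0.25 to 0.16 of its level with hPTH(1-34).

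Loss of the first residues went with higher signals. In bPTH(3-34) minus hPTH(1-34), 5 of the 10 genes were called higher (5.38% of all genes), namely Ccn1 by 0.79, Ccn2 by 0.95, Nuak1 by 1.32, Amotl2 by 0.71 and Lats2 by 0.31. In hPTH(7-34) minus hPTH(1-34), 6 were called higher (6.66% of all genes), Ccn1 by 0.95, Ccn2 by 1.05, Nuak1 by 1.45, Amotl2 by 0.73, Lats2 by 0.37 and Ajuba by 0.43. The Ccn2 call was lost in both when its 2 rows were averaged, at 0.32 and 0.36. Leaving out any 1 array of hPTH(1-34), or bPTH(3-34) replicate 2 or 3, ended the Lats2 call against bPTH(3-34), at 0.27 to 0.33. Leaving out replicate 2 or 3 of either group ended the Ajuba call against hPTH(7-34), at 0.38 to 0.42. Both contrasts share the arrays of hPTH(1-34). bPTH(3-34) differs from hPTH(1-34) in species as well as in length, and the effects of these cannot be told apart.

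The 2 truncated analogs given at 100 nM were also set against each other. In hPTH(7-34) minus bPTH(3-34) none of the 10 genes was called (0.0496% of all genes), with intervals from -0.43 to 0.46 over the 10 genes. Of the 10, 0 had an unadjusted p under 0.05, against 1124 of all genes. The arrays of hPTH(7-34) were all above those of bPTH(3-34) for Ccn1, with a difference of 0.16 (interval -0.04 to 0.37). The share of all genes with arrays so placed was not counted for this pair. The analog bPTH(7-34) had another dose and is given side by side only. Its means were 10.06 ± 0.19 for Ccn1, 7.17 ± 0.30 for Ccn2 and 6.98 ± 0.04 for Nuak1 (SD, n = 3), beside 10.15 ± 0.05, 7.05 ± 0.04 and 7.01 ± 0.12 with hPTH(7-34).

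**Figure D3:**
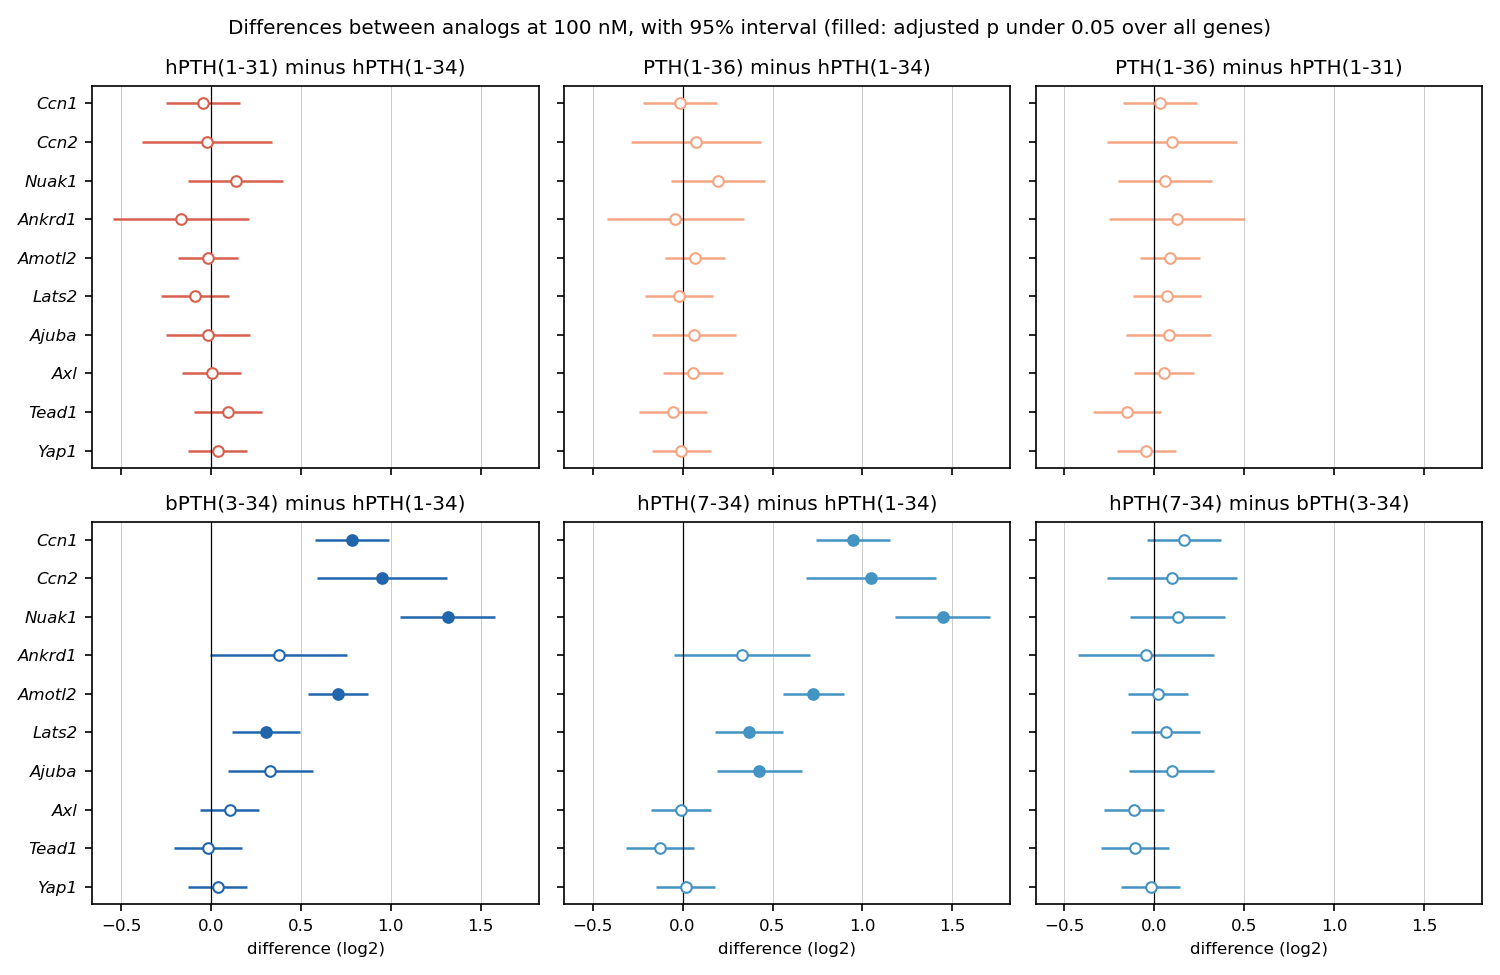
Difference between 2 analogs at 100 nM (log2, horizontal axis) of the 10 genes, with 95% intervals as lines; filled points were called. The upper row compares the intact analogs, where every interval holds 0, and the lower row holds the truncated analogs, with Nuak1 1.32 and 1.45 above hPTH(1-34).

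Other genes of the pathway were taken from lists drawn from background knowledge. These lists too were chosen with earlier results of these data known, so nothing is read from their counts. Of 85 listed genes 76 were measured. With hPTH(1-34) 6 rose and 24 fell, with hPTH(1-31) 6 rose and 28 fell, and with PTH(1-36) 7 rose and 23 fell. Of all genes 3.9%, 4.38% and 3.68% were called higher and 4.74%, 4.32% and 3.54% lower, in the same order. These shares also stand beside the counts of each single list below. The same direction was called with all 3 intact analogs for 5 genes that rose and 20 that fell of the 76, or for 2.8% (rose) and 2.48% (fell) of all 22180 genes, in contrasts that share the vehicle arrays. Of the 76, 38 were called with none. With the 3 truncated analogs limma called none of the 76, and 2, 1 and 1 had an unadjusted p under 0.05 with bPTH(3-34), hPTH(7-34) and bPTH(7-34). Of all 22180 genes 1313, 1817 and 1151 had such a p, in the same order.

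Of the kinases, scaffolds and upstream regulators of the Hippo pathway 24 of 32 were measured, and genes moved both ways, with 4 up and 4 down for hPTH(1-34) and 3 up and 6 down for each of the other intact analogs. The list median was -0.11, -0.08 and -0.10, beside -0.01, -0.02 and -0.02 over all genes. Amot, the founding member of the angiomotin family to which Amotl2 belongs, fell by 0.93, 0.80 and 0.66 with hPTH(1-34), hPTH(1-31) and PTH(1-36) (limma, adjusted p = 1.05e-06, 6.02e-06 and 7.61e-05). Wwc2, of the KIBRA family of LATS activators, fell by 0.66, 0.67 and 0.68. Sav1, the scaffold of the MST kinases, rose by 0.55, 0.52 and 0.50 (adjusted p = 9e-05, 0.000161 and 0.00028). Frmd6, a membrane scaffold upstream of the kinases, rose by 0.39, 0.53 and 0.49, and the tight junction protein Tjp1 rose by 0.26, 0.38 and 0.35. Leaving out vehicle replicate 3 or the first array of hPTH(1-34) ended the Tjp1 call for that analog, at 0.23 and 0.26. The kinase cofactor Mob1a (-0.19, -0.11 and -0.09) and the YAP-binding phosphatase Ptpn14 (0.04, 0.16 and 0.13) were not called. Lats1, the paralog of Lats2, chosen after its values were seen, was at -0.02, 0.12 and 0.09 and was not called.

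All 8 listed coactivators, TEAD factors and VGLL cofactors were measured. None rose and 3 fell with hPTH(1-34), none rose and 2 fell with hPTH(1-31), and 1 rose and 2 fell with PTH(1-36), with medians of 0.13, -0.05 and -0.08. Vgll3, a cofactor that binds TEAD in competition with YAP, fell by 0.71, 0.89 and 0.85 (adjusted p = 0.000135, 9.39e-06 and 2.16e-05). Tead2 fell by 0.55, 0.69 and 0.58 (adjusted p = 0.00147, 0.000138 and 0.00101). Tead3 fell by 0.43 with hPTH(1-34) (adjusted p = 0.0208) and was at -0.30 and -0.35 with the other intact analogs, not called. That call was lost without any 1 of the 3 arrays of hPTH(1-34) or vehicle replicate 1 or 2, at -0.37 to -0.43. Wwtr1, the gene of TAZ, was at 0.19 and 0.23 with hPTH(1-34) and hPTH(1-31), not called, and rose by 0.29 with PTH(1-36) (adjusted p = 0.0475). That call was lost without any 1 of the 3 vehicle arrays or without PTH(1-36) replicate 2 or 3, at 0.24 to 0.30. Tead4 (0.29, -0.16 and -0.13) and Vgll4 (0.10, 0.15 and 0.12) were not called. The 4 TEAD genes thus had differences of both signs, Tead1 included.

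A 22-gene signature of YAP and TAZ activity from the literature holds further target genes, of which 15 of 16 were measured. With hPTH(1-34) none rose and 6 fell, with hPTH(1-31) 1 rose and 8 fell, and with PTH(1-36) 1 rose and 5 fell, with medians of -0.19, -0.26 and -0.21. Asap1, a regulator of the GTPase Arf at adhesion sites, fell by 0.76, 0.74 and 0.84 (adjusted p = 4.36e-06, 6.16e-06 and 1.66e-06). Fjx1, of the four-jointed family, fell by 0.87, 0.67 and 0.73, and F3, the tissue factor that starts clotting, fell by 0.74, 0.67 and 0.63. Tgfb2, a transforming growth factor, fell by 0.64, 0.47 and 0.47. Crim1, a membrane protein that binds bone morphogenetic proteins, was at 0.22 with hPTH(1-34), not called, and rose by 0.41 and 0.33 with hPTH(1-31) and PTH(1-36) (adjusted p = 0.00437 and 0.0244). The call for PTH(1-36) was lost without vehicle replicate 2 or 3 or PTH(1-36) replicate 2 or 3, at 0.29 to 0.34. Ccdc80, a matrix protein, at -0.15, -0.13 and -0.12, and Rbms3, an RNA-binding protein, at 0.04, -0.05 and -0.15, were not called. Ptpn14 and Nuak2, whose values are given with other lists, also belong to the signature. Both had positive differences with the intact analogs that were not called.

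Of 24 paralogs and partners of the 10 genes, all measured, 1 rose and 6 fell with hPTH(1-34), 1 rose and 6 fell with hPTH(1-31), and 2 rose and 5 fell with PTH(1-36), with medians of -0.13, -0.08 and -0.13. This list shares genes with the lists before it, Amot and Tead2 among them. Ccn4 fell by 0.77, 0.59 and 0.54 (adjusted p = 4.97e-05, 0.000818 and 0.00198) and Ccn5 by 0.57, 0.41 and 0.39 (adjusted p = 0.000703, 0.0108 and 0.0197), both secreted proteins of the family of Ccn1 and Ccn2. For hPTH(1-31) the Ccn5 call ended on leaving out vehicle replicate 2 (-0.34) or hPTH(1-31) replicate 3 (-0.38), and for PTH(1-36) without vehicle replicate 1 (-0.39) or 2 (-0.31) or PTH(1-36) replicate 2 (-0.39) or 3 (-0.35). Amotl1, another angiomotin, was at -0.23 with hPTH(1-34), not called, and fell by 0.30 and 0.38 with the other intact analogs. For hPTH(1-31) leaving out vehicle replicate 3 (-0.27) or hPTH(1-31) replicate 2 (-0.26) ended the call. Gas6, the ligand of Axl, was at -0.07, -0.05 and -0.09, and the integrin chain Itgb5, a partner of the secreted CCN proteins, at -0.20, -0.17 and -0.12, both not called. Chosen after their values were seen, Nuak2, the paralog of Nuak1, was at 0.17, 0.15 and 0.05, and the Axl paralog Tyro3 at -0.07, 0.08 and 0.13, all not called.

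The actin skeleton feeds both YAP and the serum response factor SRF with its cofactors of the MRTF family, and some target genes respond to both. All 16 listed SRF and MRTF genes were measured. With hPTH(1-34) 1 rose and 8 fell, with hPTH(1-31) 1 rose and 9 fell, and with PTH(1-36) 1 rose and 8 fell, with medians of -0.36, -0.35 and -0.30. The gene that rose was the same, Cnn1, the smooth muscle calponin, at 2.10, 2.08 and 1.88, or 3.67-fold to 4.29-fold (adjusted p = 5.91e-12, 6.78e-12 and 3.78e-11). Its paralog Cnn2 fell by 0.82, 0.75 and 0.61, and Vcl, the vinculin of adhesion sites, fell by 0.69, 0.60 and 0.59. Fhl2, a LIM domain cofactor, fell by 0.68, 0.69 and 0.85. Mrtfb, an SRF cofactor, fell by 0.50, 0.43 and 0.53 (adjusted p = 0.000162, 0.000743 and 8.83e-05), and with its rows averaged was at -0.26, -0.25 and -0.29 and was no longer called. Acta2, smooth muscle actin (-0.25, -0.20 and -0.20), and Flna, filamin (0.12, 0.15 and 0.23), were not called.

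**Figure D4:**
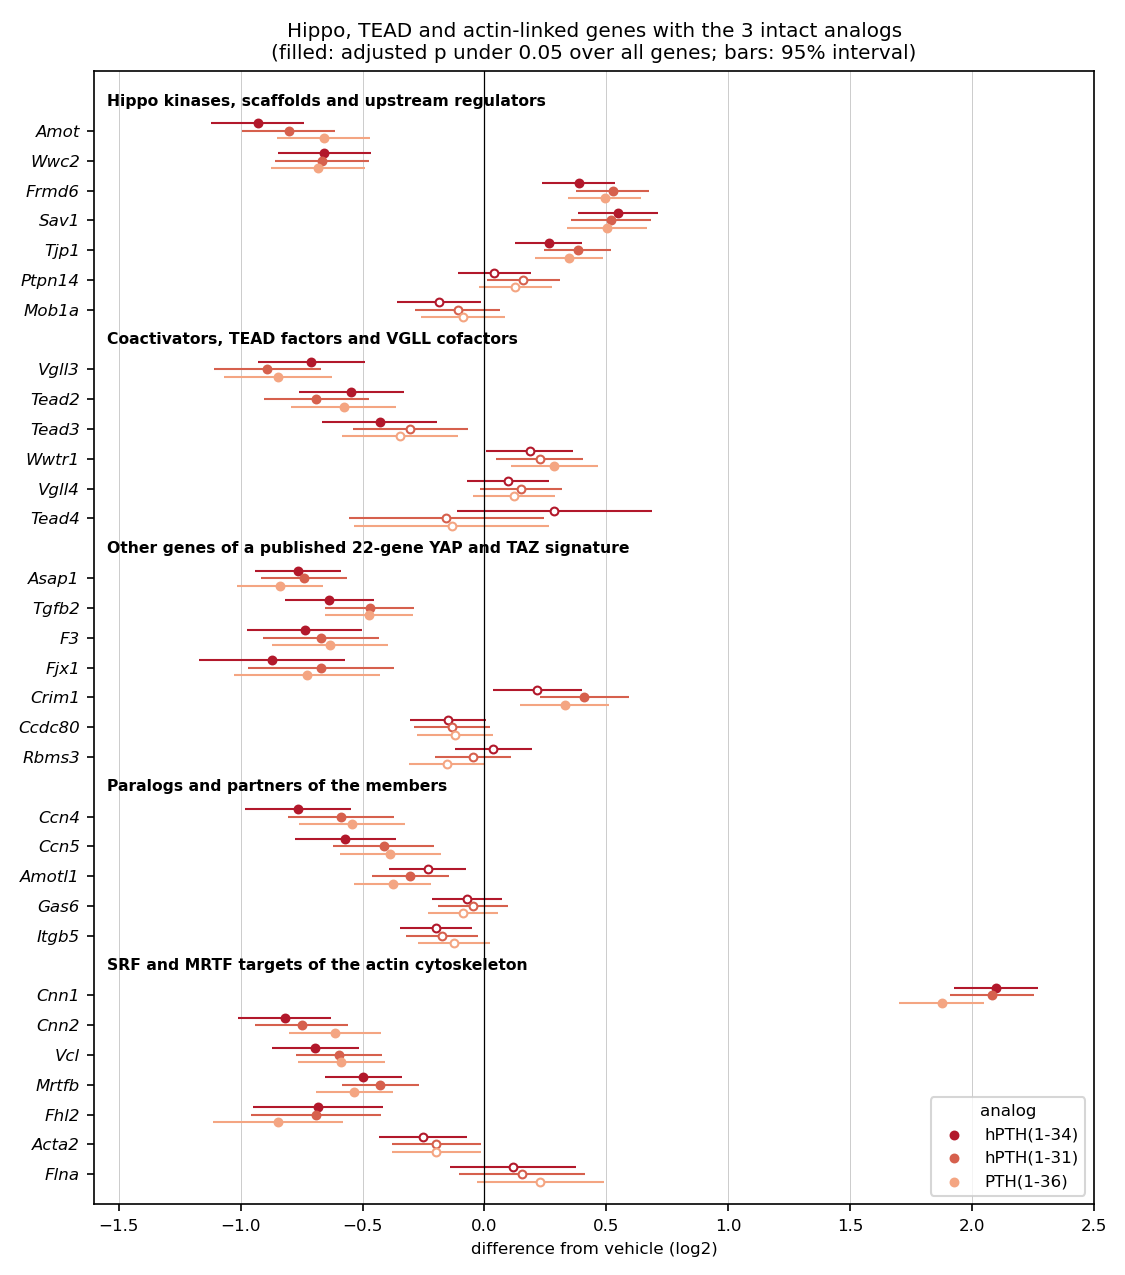
Difference from vehicle (log2, horizontal axis) of 32 genes of the pathway lists for the 3 intact analogs, with 95% intervals as lines; filled points were called. Amot, Wwc2, Vgll3, Tead2, Asap1, Tgfb2, F3 and Fjx1 lie below 0 with all 3, Sav1, Frmd6 and Tjp1 above 0, and Cnn1 near 2.

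Macrophage markers were strong in every group, with a mean of the 8 markers of 9.65 to 9.99 on the arrays of the intact analogs and 9.79 to 10.09 on the other arrays, and 1 of 8, Fcgr1, was called higher with hPTH(1-34). The mean of the 9 muscle markers was 3.79 to 4.26 with 0 called, and those of 4 fat cell and 5 cartilage markers ran from 2.86 to 3.47 and from 6.07 to 6.35, with 0 called. Of the 6 endothelial markers, whose mean ran from 3.61 to 4.01 with the intact analogs and from 3.77 to 4.06 elsewhere, Tek was called lower with all 3 intact analogs (-0.65, -1.02 and -0.83) and Kdr higher with hPTH(1-31) and PTH(1-36) (0.63 and 0.61). Of 12 osteoblast markers 9 were measured. Their mean was 7.29 to 7.47 with vehicle, 7.07 to 7.28 with hPTH(1-34) and 6.95 to 7.18 with PTH(1-36). Every array of these 2 analogs lay below all 3 of vehicle, by a small gap for hPTH(1-34) (7.28 against 7.29). This mean holds Pth1r, the largest fall of the 9 (-1.10 and -1.02), and also Alpl, which was higher (0.56 and 0.30). It was 6.99 to 7.60 with hPTH(1-31), overlapping vehicle, and 7.24 to 7.60 with the truncated analogs. With vehicle the means were 13.25 for Col1a1, 12.9 for Col1a2, 8.93 for Alpl, 7.21 for Pth1r and 6.65 for Ibsp. Sp7 was at 5.94, Phex at 4.35, Bglap at 3.73 and Dmp1 at 3.28. The collagen genes Col1a1 (-0.02, -0.04 and -0.01) and Col1a2 (-0.03, -0.01 and -0.02) were not called with hPTH(1-34), hPTH(1-31) and PTH(1-36). Of the 9, Sp7 was called lower with all 3 intact analogs (-0.56, -0.64 and -0.71), as was the receptor gene Pth1r (-1.10, -1.10 and -1.02), and Alpl higher with hPTH(1-34) and hPTH(1-31) (0.56 and 0.57). Leaving out 1 array ended some of these calls. For Fcgr1 this was so for vehicle replicates 1 and 3 and for hPTH(1-34) replicates 1 and 2 (0.35 to 0.50). For Sp7 with hPTH(1-34) it was so for vehicle replicate 1 and for hPTH(1-34) replicate 3 (-0.46 and -0.48). For Tek with hPTH(1-34) the arrays were vehicle replicates 1 and 2 and hPTH(1-34) replicates 2 and 3 (-0.48 to -0.68), and with PTH(1-36) vehicle replicate 2 (-0.66). For Kdr they were vehicle replicate 1 (0.58 and 0.56), hPTH(1-31) replicate 1 (0.53) and PTH(1-36) replicate 1 (0.45). The part of these markers in the results for Ccn1 and the other genes was not tested.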

How the data were processed

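The deposited table holds 1 signal per row and array (Mouse Gene 2.0 ST, labelled from 100 ng of total RNA), read here as log2; the base is not stated. Per the submitters' processing notes, Affymetrix Expression Console and RMA were used; versions and settings are not given in the sources used here. Values ran from 0.25 to 13.6, with array medians of 3.49 to 3.61. Within a group 2 arrays had r = 0.990 to 0.993 over all genes. Precision is limited by the number of arrays.

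Of 41345 rows, 23521 carried 1 gene symbol, 1814 several and 16010 were unnamed here. The row with the highest mean stood for a gene (22180 genes). A model of the 7 group means was fitted to all 21 arrays with lmFit and eBayes (limma 3.58.1 under R 4.3.3), checked on simulated data. For each contrast the two-sided p-values were adjusted over all genes (Benjamini-Hochberg). The 10 genes and the lists (Hippo regulators, coactivators with TEAD and VGLL factors, a YAP and TAZ signature, paralogs and partners, SRF and MRTF genes, cell type markers) were chosen with earlier results of these data known. Named besides the 10 were, per list, up to 5 called genes with the smallest adjusted p and up to 2 uncalled genes with the highest mean; others are marked. The 4 erythroid markers were not measured by a row of their own. Promoters are from RefSeq (GRCm38.p6). Alternatives covered the replicate number as a block, a signal filter, normalization, array weights, the prior, the groups in the fit, the row rule and each array left out.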

Additional observations from a re-analysis of the deposited data

How the results depend on the processing

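Of 780 alternative values of the differences of the 10 genes from vehicle, 758 kept their side of the threshold. A call was lost by 18 (15 of Ajuba and 3 of Lats2) and gained by 4 (3 of Lats2, 1 of Tead1), and 0 called differences changed sign. Differences that were not called could change sign, as that of Yap1 with hPTH(1-34) did (-0.085 to 0.065). Between analogs, the Lats2 call in bPTH(3-34) minus hPTH(1-34) ended with renewed quantile normalization (0.26), with the intensity trend (0.31) and with only the 2 groups (0.31), and in hPTH(7-34) minus hPTH(1-34) with only the 2 groups (0.37). The Ajuba call in hPTH(7-34) minus hPTH(1-34) ended with renewed quantile normalization (0.34), while in bPTH(3-34) minus hPTH(1-34) Ajuba (0.33) was called with the signal filter and with the trend. With all rows of a gene averaged the Ccn2 calls in both contrasts ended (0.32 and 0.36). The count of the 10 genes called was 4 to 5, 5 to 6 and 4 to 5 with hPTH(1-34), hPTH(1-31) and PTH(1-36) when 1 array was left out. With the spread from only the 2 groups compared, which leaves fewer arrays, the calls against vehicle went from 1917 to 936, from 1930 to 928 and from 1603 to 606 over all genes, in that order, and from 30 to 19, 34 to 16 and 30 to 14 over the pathway lists. In bPTH(3-34) and hPTH(7-34) minus hPTH(1-34) they were 1217 and 1425 in place of 2068 and 2409. Both contrasts of PTH(1-36) with an intact analog, hPTH(7-34) against vehicle and hPTH(7-34) minus bPTH(3-34) had 0 calls in that fit. PTH(1-36) minus hPTH(1-34) called 3 genes in place of 1 with the signal filter, renewed quantile normalization or the intensity trend, and 0 to 3 with 1 array left out. PTH(1-36) minus hPTH(1-31) also called 0 to 3 with 1 array left out. With the trend hPTH(7-34) called 34 genes against vehicle in place of 16 (6 to 24 with 1 array left out), bPTH(7-34) called 1 in place of 0, and hPTH(7-34) minus bPTH(3-34) 18 in place of 11 (2 to 9 with 1 array left out). The cause was not tested where none is given.

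Deviations of arrays with the same replicate number were at most weakly correlated (r = -0.08 to 0.10 over 36 pairs of arrays, 0 over 0.1). The same number still gave the highest r in 21 of 36. For replicate 3 of hPTH(1-34), hPTH(1-31) and PTH(1-36) with vehicle, r was 0.095, 0.083 and 0.092, and negative with the other vehicle arrays. The main fit did not use the number. With the number as a replicate block the genes called against vehicle were 2190, 2179 and 1945 for the 3 intact analogs, the pathway genes 33, 34 and 33, and the counts of the 10 genes stayed at 5, 6 and 5. With it limma also called Acta2 with hPTH(1-34) (-0.25), Flna (0.23), Tead3 (-0.35) and Alpl (0.30) with PTH(1-36), and Fcgr1 with hPTH(1-31) and PTH(1-36) (0.40 and 0.43), at adjusted p = 0.0267 to 0.0467.

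Signals near the low end, such as the second Ccn2 row at about 3, can understate a change. With 3 arrays a group, the interval of Ankrd1 with hPTH(1-34) reached from -0.58 to 0.18.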

Other observations

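The genes whose signals followed 4 of the described genes most closely over the 21 arrays were looked up as a description, among all named genes without predicted genes, clones and small RNAs. Such a correlation joins arrays that fall into the 9 of the intact analogs and the other 12, and no p-value is given. Ccn1 was followed by Meox2, a homeobox factor (r = 0.980), Calhm5, an ion channel subunit (r = 0.978), and Ptpn21, a phosphatase (r = 0.977). Ccn2 was followed by Ccnd1, the cyclin D1 of the cell cycle (r = 0.967), Cemip, a hyaluronan-degrading protein (r = 0.965), and Tsc22d2 (r = 0.965). Nuak1 was followed by Ptx3, a pentraxin of innate immunity (r = 0.975), Snx7, a sorting nexin (r = 0.975), and Thbs1, the matrix protein thrombospondin 1 (r = 0.970). The closest genes to Ankrd1 were looser, with Ano8 at r = 0.846, Rab7 at r = 0.845 and Sfxn1 at r = 0.835.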
